A study of Mus musculus with 38 samples.

Results

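The HOX cluster genes are 38 protein-coding genes that lie in 4 compact clusters, 10 of them in HOXA, 10 in HOXB, 9 in HOXC and 9 in HOXD, out of 21938 protein-coding genes considered. The members were taken by name and not by a measured value, but with earlier results of these data known. Each was described by a window made of its gene body with 10 kb on both sides, and each cluster was also described as a whole. Windows of neighbouring members overlap, so that 37 of the 38 share bases with another member and are not independent of each other.

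HOX genes encode homeodomain transcription factors that give cells their place along the head-to-tail axis. Within a cluster the genes lie in the order in which they are used along the body: low paralog numbers act towards the head and high numbers towards the tail, a property named colinearity. Adult skin, its fibroblasts above all, keeps a HOX pattern that records the place on the body, and in tissues where a cluster is unused its genes are held silent by Polycomb proteins. In the hair follicle, *Hoxc13* controls hair keratin genes.

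A pair of histone marks was mapped by MINT-ChIP, in which chromatin fragments of each sample receive a DNA barcode and are then immunoprecipitated together. H3K4me1 marks primed and active enhancers, and H3K27ac marks active enhancers and promoters. Skin cells came from male mice of the genotype K14rtTA; TRE-myc-Sox9, in which the *Krt14* promoter limits the doxycycline-dependent activator to stratified epithelium and doxycycline (DOX) then switches on MYC-tagged SOX9. All skin groups carried both alleles, the uninduced group D0 included. DOX was started at postnatal day 21, and epidermal stem cells (EpdSCs) were sorted from back skin before induction and after 1, 2, 6 and 12 weeks (W1, W2, W6 and W12). The sort kept Ly6A-high and CD49f-high cells that were CD34-neg and left out those with CD31, CD45, CD117 or CD140a. The W12 libraries also held replicate 1 of W2, told apart by its barcode. W12 cells came from newborn epidermis grafted onto immunocompromised Nude hosts and induced after healing, so that time and grafting cannot be told apart at W12. For culture, EpdSCs of newborn K14rtTA mice were transduced with DOX-inducible wild-type SOX9 (WT), SOX9 without its DNA-binding HMG domain (noHMG) or SOX9 without its transactivation domain (noTA). The uninduced culture control carried the WT construct without DOX.

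The 38 samples form 16 groups. Labels give each sample as a high or a low digest with the enzyme MNase, so samples of a group are not all separate replicates. Reads of the groups with H3K4me1 or H3K27ac had been merged into 14 lists of called intervals, whose names give no digest. Of these, 5 are of H3K4me1 and 5 of H3K27ac in skin, and 4 are of H3K4me1 in culture. With 1 pooled list per condition no spread between replicates could be had, no test was possible, and each difference below has no replicate check. The measure used throughout is cover, the percentage of the bases of a window or cluster that lie inside an interval. A stronger signal, more cells with the mark and a more deeply sequenced list can all widen intervals, and fewer cells with a mark cannot be told apart from less of the mark per cell. The background pileup, a measure that follows read number, lay between 0.299 at W1 and 0.677 at W6 in the H3K27ac lists, so W1 was the shallowest of them. For H3K4me1 the depth is unknown. The label of the cells was checked by H3K27ac within 1000 bp of start sites: all 6 EpdSC markers (*Krt5*, *Krt14*, *Itga6*, *Itgb4*, *Trp63* and *Ly6a*) had it in every skin list, 0 of 5 fibroblast markers and 0 of 4 immune markers had it in any, and *Pmel*, *Dct* and *Mitf* of melanocytes and *Pecam1* of endothelium had it in some. Counted over whole windows, 0, 2, 1, 1 and 4 of the 5 fibroblast markers held a peak somewhere from D0 to W12, with at most 4.21% of a window covered, and 1, 0, 0, 1 and 2 of the 4 immune markers did, with at most 2.65%. Both numbers were highest at W12, and their part in the HOX values was not tested.

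HOXA, HOXB and HOXC carried both marks in EpdSCs and HOXD carried H3K4me1 alone. Before induction H3K4me1 covered 73.0% of HOXA, 56.0% of HOXB, 57.8% of HOXC and 15.1% of HOXD, against 11.4% of the genome. H3K27ac covered 31.3% of HOXA, 24.6% of HOXB and 8.49% of HOXC, against 1.001% of the genome, and no base of HOXD in any of the 5 lists. When the genome was cut into 27247 tiles of 100 kb, a comparison added after the covers had been seen, 4 tiles had more H3K27ac at D0 than HOXA, 19 had more than HOXB and 592 had more than HOXC. HOXA and HOXB thus had more H3K27ac cover at D0 than nearly all tiles, while most tiles shared the cover of 0 of HOXD. HOXB spans 173941 bp and is longer than a tile, so its ranks compare unlike lengths. The tiles include those on the clusters. By members, 21 windows held an H3K27ac peak at D0 (58.7% of all gene windows), 23 at W1 (58.5%), and 21 each at W2 (58%), W6 (60.5%) and W12 (59.1%). An H3K4me1 domain lay in all 38 windows from D0 to W6, when 79.9%, 76.9%, 77.7% and 79.2% of all windows held one, and in 37 at W12 (78%). For H3K27ac the share of members with a peak was thus near that of all genes, and the length covered was what set them apart.

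After induction the acetylated clusters moved apart in time. H3K27ac over HOXA was 44.8%, 38.6%, 32.7% and 9.17% from W1 to W12. Over HOXB it was 33.1%, 36.8%, 32.2% and 22.7% in the same order, and over HOXC 12.2%, 12.4%, 12.1% and 3.86%. HOXA was therefore highest in the shallow W1 list and HOXB at W2, and HOXA was under its D0 level by the widest margin at W12, when the genome as a whole stood at 0.847%. Of the tiles, 7 gained more H3K27ac than HOXA from D0 to W1 and none fell by more than HOXA, by 22.1 percentage points, from D0 to W12. HOXB changed by −1.88 points over that interval, and 5.94% of the tiles fell by more.

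**Figure D1:**
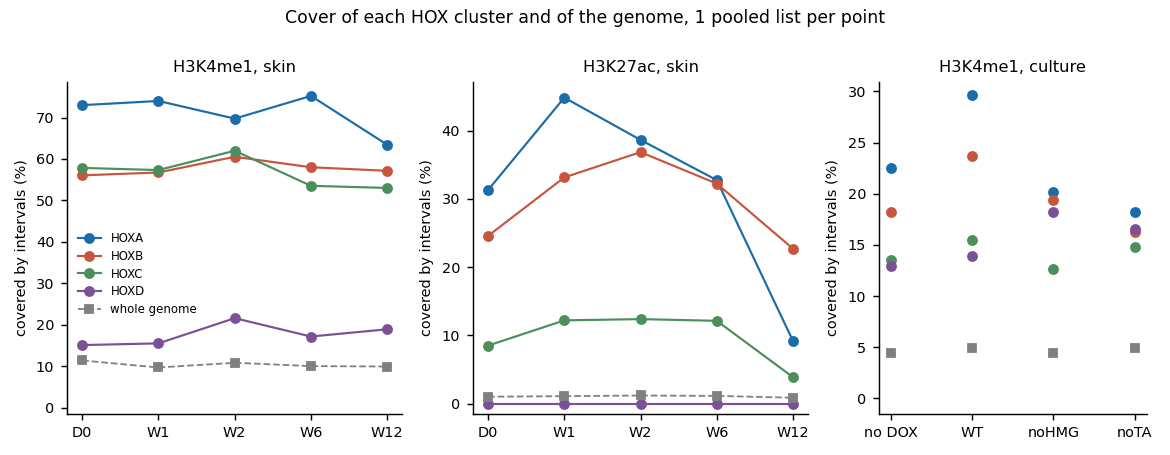
Percentage of each HOX cluster and of the whole genome covered by intervals, with 1 pooled list per point and no replicate error; lists stand in order on the horizontal axis, not to a scale of weeks. H3K27ac over HOXA reaches 44.8% at W1 and 9.17% at W12, HOXB stays at 22.7% or above, and HOXD is at 0 in every H3K27ac list.

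The largest change from D0 in any list was smaller for H3K4me1 than for H3K27ac in HOXA (−9.55 and −22.1 points) and HOXB (4.48 and 12.3 points), but not in HOXC (−4.84 and −4.63 points) or in HOXD, which had no H3K27ac change. HOXA had 74.0%, 69.7%, 75.2% and 63.4% from W1 to W12, and HOXB had 56.7%, 60.5%, 58.0% and 57.1%. HOXC had 57.3%, 62.0%, 53.5% and 53.0%, and HOXD had 15.5%, 21.6%, 17.1% and 18.9%. HOXA at W12 was the lowest value of its cluster, 9.55 points under D0, whereas HOXD was above its D0 value in every later list. Among intervals above the median score HOXD changed by −2.69 points at W1 and −0.83 points at W12 instead.

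The posterior median of H3K27ac was the lowest of the cluster in HOXA, HOXB and HOXC at D0. In the D0 list, over all 4 clusters, the 7 anterior members (paralogs 1 to 3) had a median H3K27ac window cover of 43.4%, the 15 central members (paralogs 4 to 8) of 32.5% and the 16 posterior members (paralogs 9 to 13) of 0. The median over all protein-coding genes was 1.14%. The anterior group includes 3 members at 0, *Hoxb1*, *Hoxd1* and *Hoxd3*, and the highest posterior member was *Hoxa9*, at 22.0%. Anterior and central members kept no fixed order: in HOXA the anterior median was above the central one (53.0% and 44.3%) and in HOXB below it (43.4% and 49.6%), while HOXC has no anterior member. For H3K4me1 the medians were 69.3%, 87.1% and 24.9% against 18.5% over all genes, a pooled order that differed between clusters. In HOXA the anterior and central medians were 92.6% and 91.9%, and in HOXD the posterior median, 19.7%, was the highest of the cluster (11.1% anterior and 13.6% central).

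The acetylated part of HOXA, HOXB and HOXC ended at a similar paralog at D0. At D0 the last H3K27ac peak of HOXA ended 59.4 kb from its anterior end, past *Hoxa7* and short of *Hoxa9*. In HOXB the last peak lay at *Hoxb8*, 85.2 kb from the anterior end, and in HOXC at *Hoxc8*, 46.5 kb from it. All members beyond paralog 9 in the 4 clusters were without an H3K27ac peak at a start site in every skin list. In HOXA the last peak lay at *Hoxa9* at W2 and W6 and short of it again at W12. The border in HOXC stayed between 44.8 kb and 46.8 kb at all 5 time points, while in HOXA a narrow last peak of 349 bp at W1 lay farther out, between *Hoxa11* and *Hoxa13*. In HOXB the last peak of the W1, W2, W6 and W12 lists ended 116.9 kb to 117.6 kb from the anterior end, between *Hoxb9* and *Hoxb13*.

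**Figure D2:**
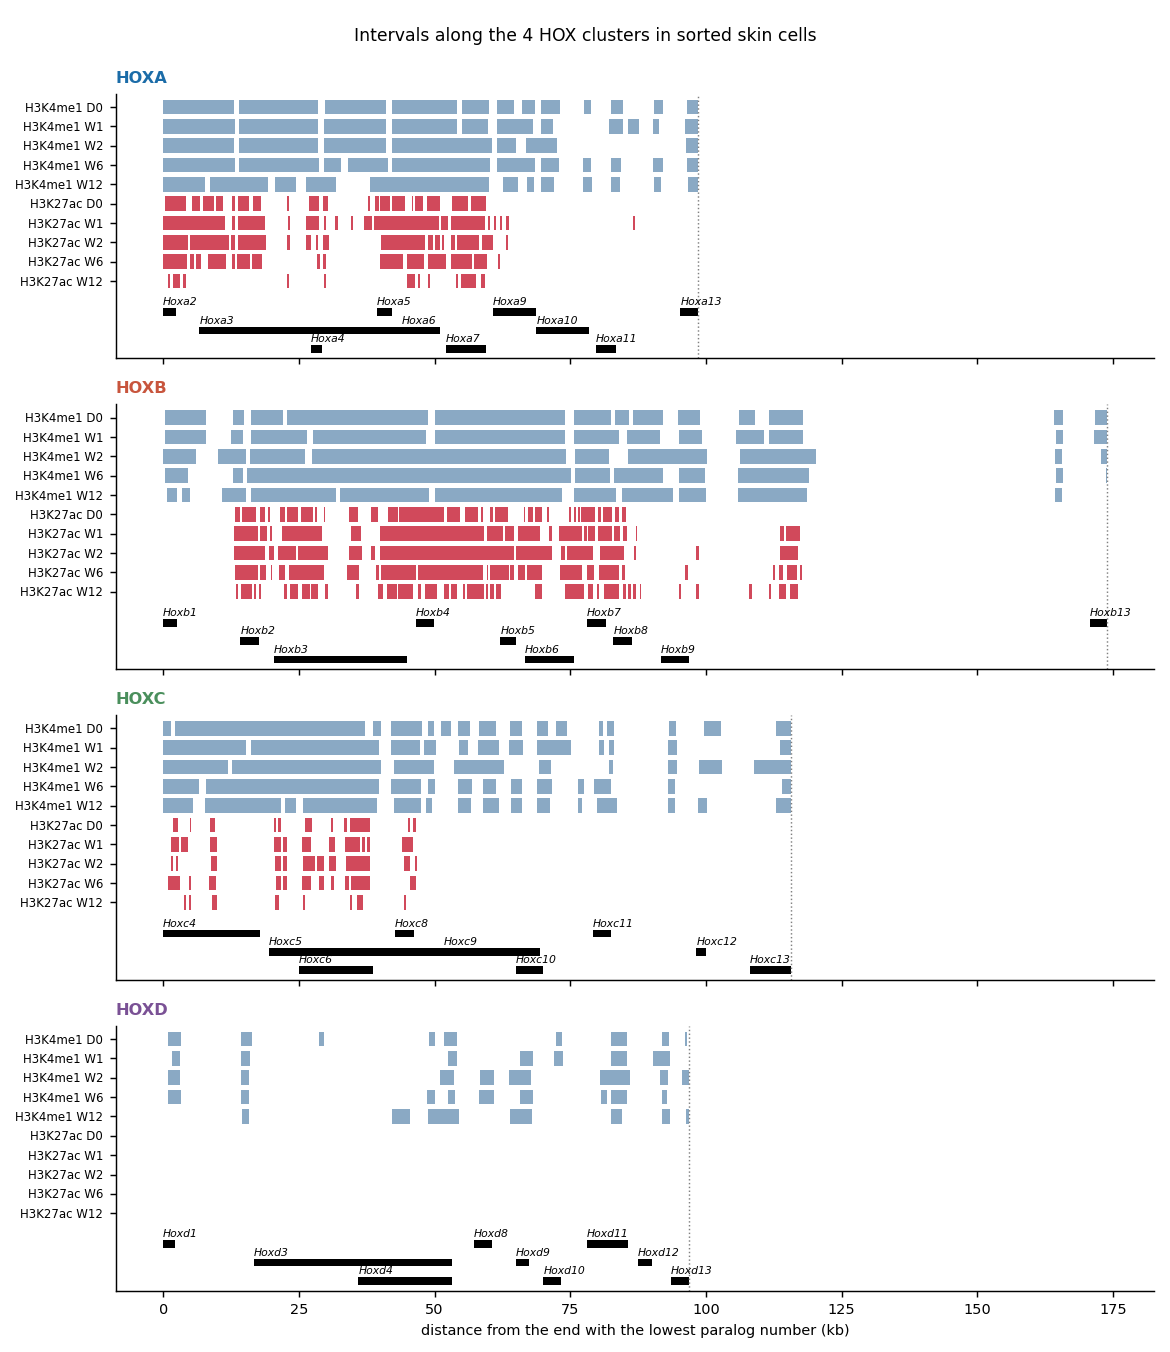
Called intervals of H3K4me1 (blue) and H3K27ac (red) in the 10 skin lists, drawn to scale along each cluster from the end with the lowest paralog number, with gene bodies in black and the cluster end as a dotted line. H3K27ac lies mainly in the anterior and central part of HOXA, thinly at W12, and of HOXB, whose first 10 kb hold none. It is sparse in HOXC and absent from HOXD. In HOXB a separate group of peaks lies about 117 kb from the anterior end in the W1, W2, W6 and W12 lists but not at D0.

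Acetylated and bare start sites overlapped in the density of CG dinucleotides. RefSeq promoters (250 bases before to 50 after the start, GRCm38) were matched for 22 members, 24 promoters in all. The 9 of members with H3K27ac at a start site in at least 1 list held a median of 13 CG dinucleotides (range 4 to 29), the other 15 held 20 (4 to 45), and all 32851 promoters of the table held 7. The 200 bases upstream of *Hoxb4*, the member with the highest H3K27ac cover at D0 and a gene that expands blood stem cells when overexpressed, and of *Hoxa13*, the last gene of HOXA, which shapes digits and the genital tract and had no peak at its start in any list, are shown as an acetylated and a bare example, with CG in capitals. *Hoxb4* lies on the plus strand (chr11:96318067-96318266) and *Hoxa13* on the minus strand (chr6:52260881-52261080).
Hoxb4 promoter: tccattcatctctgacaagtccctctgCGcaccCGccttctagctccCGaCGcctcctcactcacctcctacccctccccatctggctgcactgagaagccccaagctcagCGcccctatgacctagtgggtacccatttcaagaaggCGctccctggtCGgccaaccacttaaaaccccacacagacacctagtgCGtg
Hoxa13 promoter: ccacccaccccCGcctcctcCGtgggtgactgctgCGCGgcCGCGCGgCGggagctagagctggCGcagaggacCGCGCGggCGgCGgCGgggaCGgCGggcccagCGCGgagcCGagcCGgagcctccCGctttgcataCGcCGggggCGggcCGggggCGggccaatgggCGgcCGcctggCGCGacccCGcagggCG
These stretches hold 8 and 33 CG dinucleotides, and *Hoxa13* is the richest in CG of the 24 promoters.

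In HOXA (chr6:52162417-52260880, minus strand genes) the cells kept a block of acetylation over *Hoxa2* to *Hoxa7*. *Hoxa2*, a gene of the hindbrain and branchial arches and the first member of the cluster, had H3K27ac over 54.1% of its window, 75.6%, 72.6%, 59.5% and 25.9% from D0 to W12. *Hoxa3*, needed for the thymus and parathyroid, had 51.8%, 71.6%, 63.4%, 54.8% and 19.02%. Its annotated body of 44275 bp spans *Hoxa4*, *Hoxa5* and *Hoxa6*, so its window repeats theirs. Both genes were highest at W1 and lowest at W12, and *Hoxa2* kept a peak at its start site throughout while *Hoxa3* had none at W12.

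Among the central HOXA genes, *Hoxa6* reached the highest W1 cover of the cluster. Its window stood at 54.8%, 82.0%, 59.2%, 62.2% and 18.0% from D0 to W12, the largest fall by W12 of any member (36.8 points, below which lay only 0.0182% of protein-coding genes). *Hoxa5*, a regulator of lung and cervical vertebrae, had 44.2%, 68.3%, 49.4%, 49.0% and 11.1%, and *Hoxa7* had 44.4%, 65.6%, 56.9%, 55.5% and 22.6%. All 3 neighbours were highest at W1 and lowest at W12. *Hoxa4* differed: 21.1%, 34.4%, 20.5%, 8.83% and 3.67% from D0 to W12, the only member more than 10 points under D0 already at W6.

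Towards the posterior end of HOXA acetylation thinned while H3K4me1 went on. *Hoxa9*, a homeobox gene of blood progenitors and leukaemia, had H3K27ac over 22.0%, 33.4%, 28.6%, 28.7% and 14.4% and H3K4me1 over 66.4%, 61.1%, 68.2%, 75.7% and 61.4% from D0 to W12. *Hoxa10* never exceeded 8.62% in H3K27ac, and *Hoxa11*, a gene of the forearm and uterus, and *Hoxa13* had 0 except at W1, when both windows held the narrow peak mentioned above (1.47% and 1.51%). H3K4me1 over *Hoxa11* was 36.7%, 33.3%, 12.2%, 35.8% and 29.1%, the largest fall at W2 of any member (24.5 points), and it stood higher again at W6. *Hoxa13* had 24.2%, 34.5%, 17.3%, 25.9% and 21.6%. Both thus had their lowest H3K4me1 cover at W2.

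H3K4me1 over *Hoxa2* to *Hoxa6* was close to complete until W6. Windows of *Hoxa2*, *Hoxa3*, *Hoxa4*, *Hoxa5* and *Hoxa6* were covered to between 90.2% and 96.4% from D0 to W6. At W12 *Hoxa4* had 56.5%, *Hoxa5* 72.0% and *Hoxa6* 80.8%, falls of 38.04, 20.8 and 10.3 points. Below the change of *Hoxa4* lay 0.15% of protein-coding genes.

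In HOXB (chr11:96194316-96368256, plus strand genes read from high to low coordinates for rising paralog number) the acetylated block ran from *Hoxb2* to *Hoxb8*. *Hoxb4* had H3K27ac over 71.1% of its window, 83.8%, 88.3%, 82.2% and 60.0% from D0 to W12, the highest member at D0, W1, W6 and W12. *Hoxb5*, which marks long-lived blood stem cells, had 49.6%, 79.8%, 89.2%, 74.8% and 40.7%, and its rise of 39.6 points by W2 was the largest among the 21938 protein-coding genes. *Hoxb6*, its neighbour, had 52.6%, 76.2%, 83.8%, 69.8% and 48.4%. All 3 were highest at W2, and all 3 kept more than 40% at W12.

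The block also held *Hoxb2*, *Hoxb3*, *Hoxb7* and *Hoxb8*. *Hoxb3*, with its neighbour *Hoxb2* a gene of the hindbrain, had 59.2%, 67.7%, 75.1%, 67.8% and 42.4%, and *Hoxb2* had 43.4%, 50.04%, 54.8%, 48.0% and 29.6%. *Hoxb7* had 39.3%, 53.9%, 58.9%, 47.9% and 46.2%, and *Hoxb8*, a gene of microglia and grooming behaviour, had 32.5%, 46.2%, 44.1%, 41.9% and 42.4%. Cover of *Hoxb7* and *Hoxb8* was therefore still above D0 at W12, by 6.91 and 9.92 points, and so was that of *Hoxb9*, which helps to pattern the ribs. *Hoxb9* had 10.5%, 13.2%, 17.1%, 13.9% and 20.02%, its highest value at W12, and these 3 neighbours were the only members above D0 at W12.

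Both ends of HOXB were without acetylation. *Hoxb1*, a gene of the facial nerve and the first member of the cluster, had no H3K27ac in any list and H3K4me1 over 36.7%, 34.2%, 37.8%, 19.6% and 21.8%. *Hoxb13*, known from the tail, prostate and adult skin, also had no H3K27ac, and its H3K4me1 cover was 21.6%, 19.02%, 13.8%, 10.38% and 6.05%. Its lowest value was at W12, where its start site no longer carried a domain. H3K4me1 over *Hoxb9* stood in contrast at 53.9%, 55.4%, 61.8%, 61.0% and 68.2%.

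In HOXC (chr15:102921103-103036852, plus strand genes again read from high to low coordinates) acetylation was sparse and H3K4me1 broad. *Hoxc6* had the most H3K27ac of this cluster, 22.7%, 30.6%, 36.9%, 30.3% and 8.24% from D0 to W12. *Hoxc8*, which is used in the trunk, had 21.9%, 23.9%, 25.3%, 22.7% and 7.33%. *Hoxc4* had 11.3%, 20.8%, 18.9%, 21.9% and 8.54%, and *Hoxc5*, whose annotated body of 49987 bp spans its neighbours, had 11.2%, 15.4%, 18.4%, 14.9% and 4.70%. Every one of these 4 was above D0 at W1, W2 and W6 and below it at W12, while *Hoxc10*, *Hoxc11*, *Hoxc12* and *Hoxc13* had 0 in all lists.

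*Hoxc13*, the hair keratin regulator at the posterior end of HOXC, changed only in H3K4me1. Its window was covered to 25.3%, 11.5%, 52.0%, 10.1% and 20.2% from D0 to W12. The W2 value stands alone: the rise from D0 was 26.7 points, the largest of any member and above that of 99.3% of protein-coding genes, and the W1 and W6 lists on either side were lower than D0. Its neighbour *Hoxc12*, whose window overlaps, went the same way (20.1%, 7.32%, 33.1%, 5.49% and 13.7%). The W2 list covered more of the genome than W1 or W6 (10.8%, 9.67% and 10.002%) but less than D0 (11.4%), and *Hoxc13* was higher at W2 than at D0.

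HOXD (chr2:74668310-74765142, plus strand genes read from high to low coordinates) carried H3K4me1 in short domains and no H3K27ac. *Hoxd1*, a gene of pain-sensing neurons and the first member of its cluster, had H3K4me1 over 10.8%, 7.22%, 9.93%, 10.8% and 0%. *Hoxd13*, the last member and a digit gene, had 28.7%, 45.0%, 36.5%, 23.6% and 22.7%. Between them lay the members that moved most: *Hoxd8* had 15.4%, 17.2%, 39.5%, 34.3% and 42.0%, *Hoxd9* had 5.34%, 18.7%, 29.4%, 23.1% and 17.8%, and *Hoxd10*, a limb and motor neuron gene, had 8.10%, 21.04%, 32.7%, 21.5% and 20.2%. These 3 overlapping windows were above D0 in every later list. *Hoxd4* ended higher as well, with 11.8%, 4.30%, 14.0%, 15.0% and 24.7%.

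**Figure D3:**
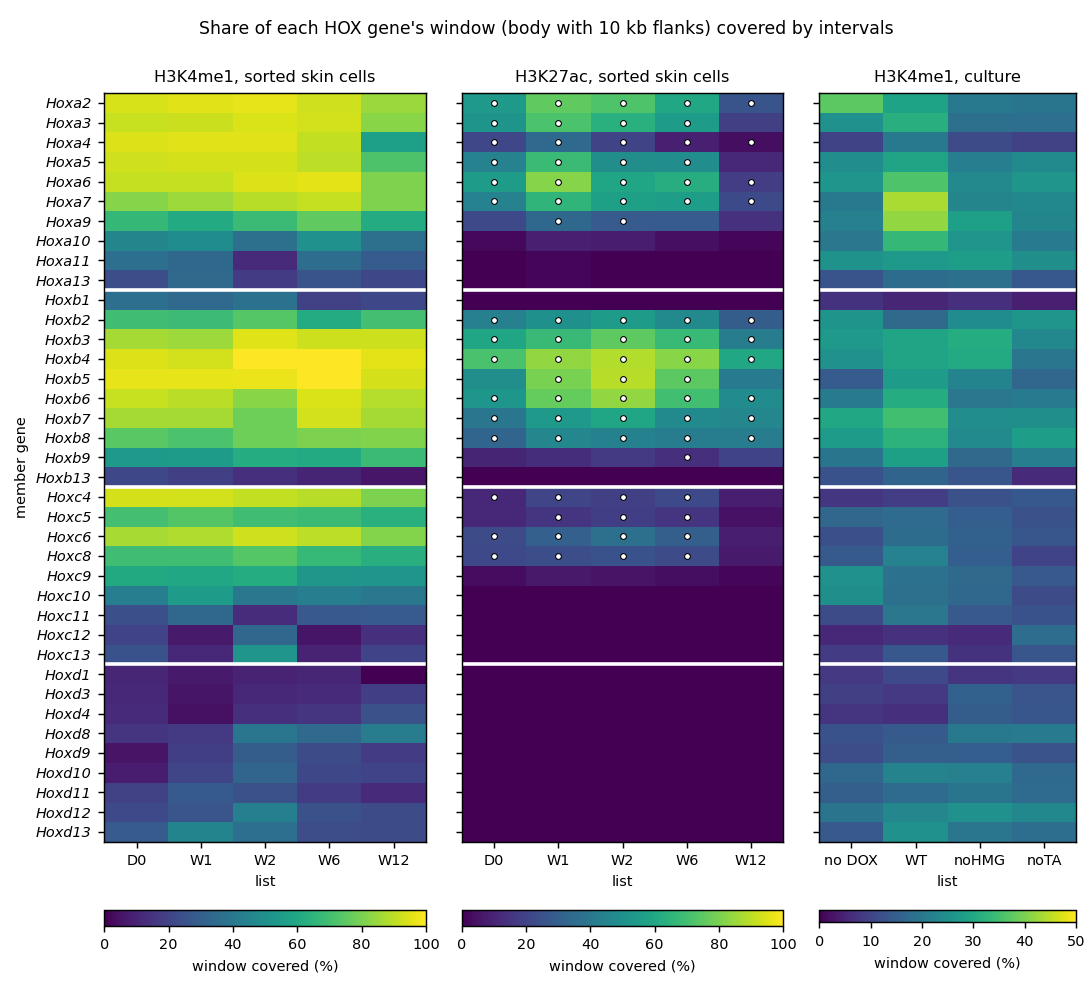
Percentage of each member's window covered by intervals in the 14 pooled lists (colour, with a separate scale for culture), with members in paralog order and white lines between clusters. White dots mark H3K27ac peaks within 1000 bp of a start site: they stop at paralog 9 and are missing from HOXD, and 10 members keep them at W12.

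Start sites gave a view of the promoters themselves. At D0 15 of the 38 members had an H3K27ac peak within 1000 bp of an annotated start site, or 39.5%, against 44.5% of all protein-coding genes. The number was 18 at W1 (43.1% of all genes), 18 at W2 (44.1%), 18 at W6 (48.4%) and 10 at W12 (36.2%). By this count the members stood near the background, and they differed from it in the length covered, with 19 members above the 90th percentile of all genes (8.78%) at D0. Over all 5 lists 19 members had a marked start site at least once and 10 had it in every list (*Hoxa2*, *Hoxa4*, *Hoxa6*, *Hoxa7*, *Hoxb2*, *Hoxb3*, *Hoxb4*, *Hoxb6*, *Hoxb7* and *Hoxb8*).

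Few start sites changed. *Hoxa9*, *Hoxb5* and *Hoxc5* had a start-site peak at W1 and at W2 and not at D0, which is 3 of the 23 unmarked members (13.04%) against 6.26% of unmarked genes at W1 and 6.63% at W2. At W6 the 3 were *Hoxb5*, *Hoxb9* and *Hoxc5* (background 10.5%). No marked start site was lost at W1, W2 or W6, against 11%, 9.36% and 4.47% of all marked genes. At W12 *Hoxa3*, *Hoxa5*, *Hoxc4*, *Hoxc6* and *Hoxc8* had lost it, 5 of 15 or 33.3% against 25.2%, and 0 of 23 had gained it against 5.16%. This loss rests on the limit of 1000 bp: within 2500 bp 17 members were marked at D0 and 17 at W12. At 1000 bp all HOXC start sites were unmarked at W12, and all 6 HOXB start sites marked at D0 were still marked. *Hoxb5* and *Hoxb9* had lost again what they had gained.

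A change of 10 percentage points or more in window cover was counted as a call. For H3K27ac, 12 members were called higher at W1, against 0.406% of all genes, and 11 at W2, against 0.948%. At W6 5 were called higher (background 1.12%) and at W12 0 (0.0912%). The members called higher at W1 were *Hoxa2* to *Hoxa7*, *Hoxa9* and *Hoxb4* to *Hoxb8*, and at W2 *Hoxb2* and *Hoxb3* joined while *Hoxa4*, *Hoxa5*, *Hoxa6* and *Hoxa9* did not pass. *Hoxc6* passed at W2 only and *Hoxc4* at W6 only. In the other direction 0 members were called lower at W1 (background 0.465%) and at W2 (0.383%), *Hoxa4* alone at W6 (0.365%), and 11 at W12 (1.68%). Under the alternatives the counts at W1 (12 to 15 higher) and at W12 (11 lower in each) held, while at W2 joining nearby peaks left 7 higher, and at W6 the intervals above the median score gave 9 higher and 0 lower.

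Genes with little cover cannot fall by 10 points, so the counts were also read, after they had been seen, against the 412 genes with at least 20% H3K27ac cover at D0, of which 16 are members. Of these 16, 12 were called higher at W1 against 5.58% of the 412, and 11 at W2 against 8.01%. At W6 the count was 4 against 8.98%. The W12 decline was shared with other such genes: 11 of 16 members were called lower against 58.5%, and the median change was −14.5 points for the members and −11.6 points for all 412. At W1 the medians were 14.1 and −3.72 points, and at W2 12.1 and −1.39 points. The median change of the members thus lay above that of the 412 genes at W1 and W2 and somewhat below it at W12. The 412 share only the lower limit of 20% and were not matched to the members in D0 cover. They include the members, which were 12 of the 23 genes called higher at W1 and 11 of the 33 at W2. The limit was set on the D0 list, the base of every change, a choice that by itself favours falls. The size of this was not tested. Among the members, *Hoxb8*, at 32.5%, was already above 99.5% of all protein-coding genes at D0.

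The 11 members called lower at W12 were *Hoxa2* to *Hoxa7*, *Hoxb2*, *Hoxb3*, *Hoxb4*, *Hoxc6* and *Hoxc8*. *Hoxa6*, *Hoxa5* and *Hoxa3* fell most, by 36.8, 33.1 and 32.8 points, and in HOXB the largest fall was that of *Hoxb3* (16.8 points). The W12 peaks were also narrower in the whole list (median 476 bp against 635 bp at D0), and the part of this in the decline was not tested. Base by base, 17.8% of HOXA carried H3K27ac in all lists from D0 to W6 and not at W12, against 5.79% of HOXB and 3.80% of HOXC. Stretches acetylated in all 5 lists made up 6.03%, 14.4% and 1.49% of the 3 clusters.

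**Figure D4:**
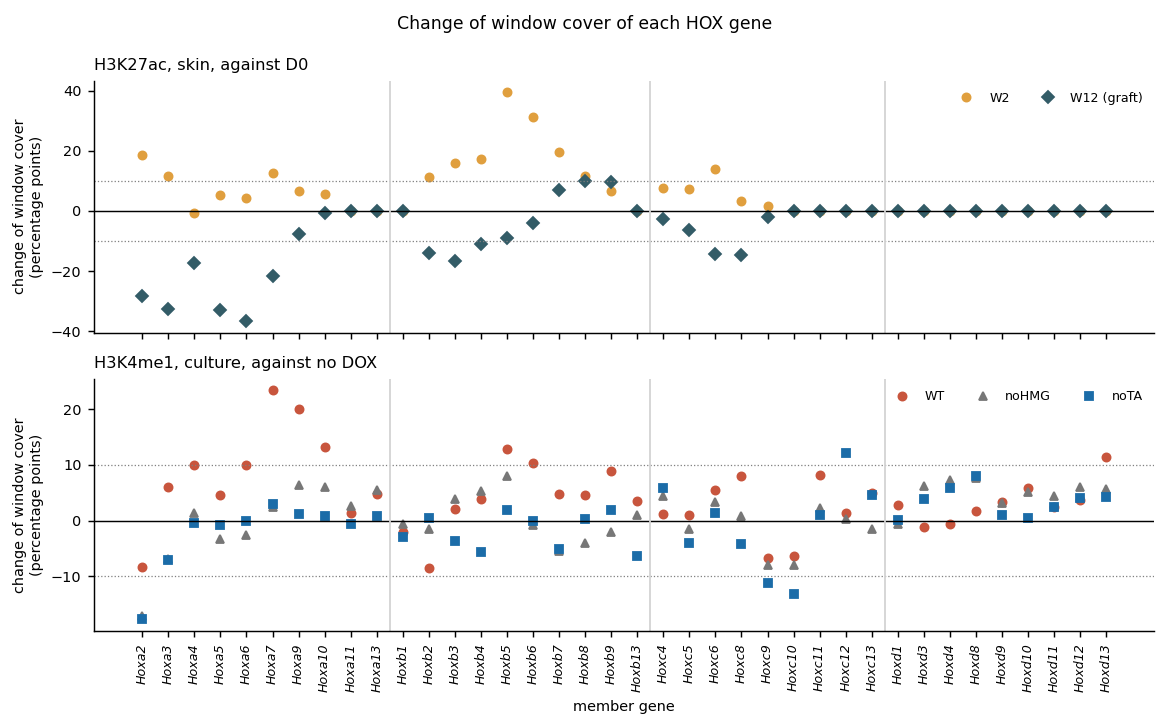
Change of window cover of each member in percentage points, upper panel for H3K27ac at W2 (circles) and W12 (diamonds) against D0, lower panel for H3K4me1 in culture with WT, noHMG or noTA SOX9 against no DOX; dotted lines mark 10 points and grey lines part the clusters. In the upper panel W2 values lie above 0 and W12 values below it over most of HOXA, while *Hoxb7*, *Hoxb8* and *Hoxb9* lie above 0 at both.

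H3K4me1 windows were called in both directions. At W1 5 members were called higher (*Hoxa13*, *Hoxc10*, *Hoxd9*, *Hoxd10* and *Hoxd13*, background 1.7%) and *Hoxc12* and *Hoxc13* lower (14.2%). At W2 6 were called higher (6.03%), *Hoxc12*, *Hoxc13*, *Hoxd8*, *Hoxd9*, *Hoxd10* and *Hoxd12*, and *Hoxa11* and *Hoxc11* lower (15.6%). At W6 *Hoxd8*, *Hoxd9* and *Hoxd10* were higher (4.72%), and *Hoxb1*, *Hoxb13*, *Hoxc12* and *Hoxc13* were lower (15.1%). At W12 5 were higher (*Hoxb9*, *Hoxd4*, *Hoxd8*, *Hoxd9* and *Hoxd10*, 4.33%) and 7 lower (*Hoxa4*, *Hoxa5*, *Hoxa6*, *Hoxb1*, *Hoxb13*, *Hoxc4* and *Hoxd1*, 17.4%). Called gains of this mark fell on posterior members and HOXD, but windows above 90% at D0, among them *Hoxa2* to *Hoxa6* and *Hoxb4* to *Hoxb6*, had no room for a gain of 10 points. The called falls before W12 fell on posterior members and *Hoxb1*. Median changes over the members were 0.047, 2.41, 1.75 and −5.03 points at W1, W2, W6 and W12, against −1.53, −0.23, −0.74 and −1.08 points over all genes. These counts were unstable: with lists of equal length 11 members were called higher at W1 and 12 at W2, and among intervals above the median score 10 were called higher at W6 and 12 lower at W12.

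H3K27ac in these clusters came in unusually wide peaks. In HOXB 1 peak of W2 ran over 24679 bp, from *Hoxb5* past *Hoxb4* (chr11:96303549-96328227), rank 2 by width in its list, and 1 of W1 over 19232 bp, again rank 2. At W6 the widest cluster peak, at *Hoxb4*, measured 11986 bp, at D0 8205 bp and at W12 3573 bp. Of the cluster's peaks in the 5 lists, 2 of 60, 9 of 47, 9 of 41, 4 of 49 and 4 of 56 from D0 to W12 were among the widest 1% of their list. Fold enrichment at the summits was less unusual: 1, 8, 3, 3 and 8 of these peaks were above the limit of the top 10% by fold. Widths are those of the peak caller, and a wide peak can replace several narrow ones, so that counts of peaks and widths are not independent.

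**Figure D5:**
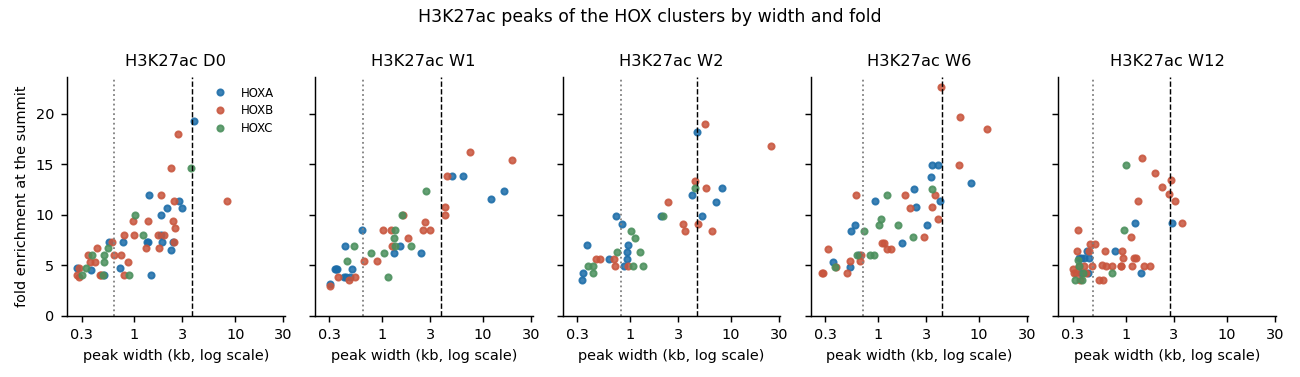
H3K27ac peaks of HOXA, HOXB and HOXC in each skin list by width (horizontal, kb on a log scale) and fold enrichment over local background at the summit (vertical); the dotted line is the median width of all peaks of the list and the dashed line the limit of its widest 1%. The widest peaks, 19232 bp at W1 and 24679 bp at W2, belong to HOXB, and no peak at W12 exceeds 3573 bp.

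The place of the strongest signal moved between a few positions of each cluster. In HOXB the summit with the highest fold at W1 (16.2), W2 (18.9) and W12 (15.6) lay in an intron of *Hoxb3*, upstream of the start site of its shorter transcripts and inside an exon of the antisense transcript *Gm11536*. The D0 and W6 lists had a summit there too, with folds of 14.7 and 19.7, so that 5 summits fall within 134 bp. At D0 and W6 the highest fold of HOXB was instead at *Hoxb2* (18.0 and 22.7). The sequence around the recurring summit (GRCm38, chr11:96341998-96342197, plus strand) is shown because all 5 lists had a summit in it. Folds ran from 14.7 at D0, the lowest, to 19.7 at W6. The stretch between the outermost summits is in capitals.
Hoxb3 upstream summit region: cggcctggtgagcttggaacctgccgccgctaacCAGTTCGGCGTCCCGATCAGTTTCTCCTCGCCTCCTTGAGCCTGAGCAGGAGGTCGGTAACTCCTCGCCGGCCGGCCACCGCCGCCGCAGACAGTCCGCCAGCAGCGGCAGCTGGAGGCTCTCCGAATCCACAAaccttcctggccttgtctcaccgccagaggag
It is 66.5% GC and holds 18 CG dinucleotides.

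In HOXA the strongest summit at D0 (fold 19.3) and W2 (18.2) lay 931 bp and 905 bp upstream of the *Hoxa2* start site, in an exon of the antisense transcript *Hoxaas2*. In the other lists 2 summits tied: that of *Hoxa7* with one in the *Hoxa3* gene body at W1 (fold 13.9), with one 189 bp from the *Hoxa3* start at W6 (14.9) and with one within *Hoxa2*, 64 bp from its start, at W12 (9.21). The *Hoxa7* summit, 266 to 338 bp upstream of the start, was present in all 5 lists within 73 bp, with folds of 10.66, 13.9, 11.9, 14.9 and 9.21 from D0 to W12. In HOXC the highest fold lay within the gene bodies of *Hoxc5* and *Hoxc6* from D0 to W6 (14.7, 12.3, 12.6 and 12.5), and at W12 it lay in an intron of *Hoxc4* (14.9). That *Hoxc4* summit was present earlier with folds of 9.996, 8.47, 7.72 and 11.9, so its fold was highest in the list with the lowest cover of HOXC.

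Short letter patterns, 3 in all, were searched on both strands in 200-base windows centred on the summits: AACAAT, the core bound by SOX proteins, TAATTA, bound by homeodomains, and AGATAA, bound by GATA proteins. AACAAT was in 1 of 60, 1 of 47, 1 of 41, 1 of 49 and 0 of 56 cluster windows from D0 to W12, or 0 to 2.44%, against 6.48% to 8.37% of all summit windows of a list. TAATTA was in 1, 4, 3, 1 and 3 windows, or 1.67%, 8.51%, 7.32%, 2.04% and 5.36%, against 2.36%, 2.77%, 3.01%, 2.41% and 3.19% of all windows. AGATAA was in 5, 4, 4, 1 and 3, or 8.33%, 8.51%, 9.76%, 2.04% and 5.36%, against 7.17%, 8.31%, 8.22%, 7.05% and 8.71%. All these cluster counts are of 5 windows or fewer. Among the summits with the highest fold, AACAAT occurred at *Hoxa2* (D0 and W2) and TAATTA at *Hoxc4* (W12). Both windows are shown with the match in capitals, the first from chr6:52165636-52165835 on the minus strand and the other from chr15:103027597-103027796 on the plus strand.
Hoxa2 upstream summit window: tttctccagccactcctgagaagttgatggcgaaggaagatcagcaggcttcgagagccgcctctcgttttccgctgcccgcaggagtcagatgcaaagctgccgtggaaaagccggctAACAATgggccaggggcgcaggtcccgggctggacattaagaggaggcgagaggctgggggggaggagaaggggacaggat
Hoxc4 upstream summit window: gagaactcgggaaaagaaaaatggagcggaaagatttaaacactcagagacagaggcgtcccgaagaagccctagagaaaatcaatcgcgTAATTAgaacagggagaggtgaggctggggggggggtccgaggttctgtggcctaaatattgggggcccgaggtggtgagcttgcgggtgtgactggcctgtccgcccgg
Of the 24 member promoters 0 held AACAAT (10.72% of all promoters), 0 held AGATAA (11.2%) and 2 held TAATTA (5.29%), both of *Hoxd11*. Cluster windows were 51.8% to 55.5% GC and all windows 49.8% to 53.0%, and a match is a description of letters, not a bound site.

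One stretch of HOXB was acetylated in all 4 induced lists and not at D0, away from any D0 peak. It lies between *Hoxb9* and *Hoxb13* in an intron of *Gm53* (chr11:96251479-96252695, 1217 bp), 18762 bp upstream of the *Hoxb9* start, and the nearest D0 peak was 30338 bp away. Peaks over it had folds of 8.47, 8.42, 11.9 and 11.3 from W1 to W12, at the 80.6th, 67.9th, 78.8th and 92.5th percentile of their lists. H3K4me1 covered it in all 5 lists, D0 included. H3K27ac was thus called there in the induced lists alone, on chromatin that had H3K4me1 before. A further 451 bp nearby (chr11:96254065-96254515) had the same history, and the other such stretches of 200 bp or more in the clusters lay within 637 bp of a D0 peak. The 200 bases around the W6 and W12 summits (chr11:96251831-96252030, plus strand) are shown with the 26 bases from 1 summit to the other in capitals, and none of the 3 letter patterns occurs in them.
Hoxb9 upstream summit region: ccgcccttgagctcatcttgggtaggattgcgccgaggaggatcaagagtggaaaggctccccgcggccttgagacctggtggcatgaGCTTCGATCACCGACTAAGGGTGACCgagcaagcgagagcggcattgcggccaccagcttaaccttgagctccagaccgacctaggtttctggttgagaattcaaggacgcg

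Most acetylated bases of the clusters lay inside H3K4me1 domains. The share was 91.8% in HOXA, 91.0% in HOXB and 86.8% in HOXC at D0, and 88.1% to 100% in these clusters later. In the other direction H3K27ac lay on 39.3% of the H3K4me1 bases of HOXA at D0, 56.2%, 52.5%, 41.7% and 14.4% from W1 to W12. For HOXB the shares were 39.9%, 51.5%, 54.6%, 53.2% and 35.5%, and for HOXC 12.7%, 21.3%, 19.96%, 22.6% and 7.11%. At W12 most of HOXA therefore kept H3K4me1 without H3K27ac (54.3% of its bases, 44.3% at D0). HOXD had H3K4me1 alone.

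Peaks of H3K27ac were lost less often in the clusters than in the lists as a whole. Of the D0 H3K27ac peaks in the clusters, 5 of 60 had no overlapping peak at W1 (8.33%, exact 95% Clopper-Pearson interval 2.76 to 18.4%) against 37.4% of the whole list. At W2 it was 3 of 60 (5%, 1.04 to 13.9%) against 38.6%, and at W6 5 of 60 (8.33%, 2.76 to 18.4%) against 37.8%. An overlap of 50% gave 7 lost at W2 and 8 at W6, and the intervals above the median score gave 1, 1, 3 and 15 from W1 to W12. The W12 list lacked 23 of 60 (38.3%, 26.1 to 51.8%) against 53.7%, of which 11 were in HOXA, 6 in HOXB and 6 in HOXC. Peaks with no D0 counterpart were 14 of 47 at W1 (29.8%, 17.3 to 44.9%), an interval that holds the 41.3% of the whole list. They were 8 of 41 at W2 (19.5%, 8.82 to 34.9%) against 40.1%, 11 of 49 at W6 (22.4%, 11.8 to 36.6%) against 39.8%, and 16 of 56 at W12 (28.6%, 17.3 to 42.2%) against 56.2%, and 13 of the 16 were in HOXB. Among intervals above the median score 9, 2 and 8 were new at W1, W2 and W12. These 95% intervals cover counting error only and treat neighbouring peaks of 1 pooled list as independent, which they are not. They are no test, and wide peaks overlap more easily than narrow ones.

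For H3K4me1 the shares of lost and of new domains in the full lists all lay below those of the whole list in value. Whether they differ from it was not tested. The Clopper-Pearson intervals again treat neighbouring domains of a pooled list as independent. They are no test, whether or not they hold the list's share. Of 50 D0 domains in the clusters 6 had no counterpart at W1, W6 and W12 each (12%, 4.53 to 24.3%), against 27.8%, 26.6% and 31.2% of the whole list. At W2 it was 10 (20%, 10.03 to 33.7%), an interval that holds the 32.4% of the list. New domains numbered 2 of 42 at W1 (4.76%, 0.582 to 16.2%, list 5.96%), 2 of 33 at W2 (6.06%, 0.743 to 20.2%, list 20%), 4 of 41 at W6 (9.76%, 2.72 to 23.1%, list 17.1%) and 3 of 45 at W12 (6.67%, 1.40 to 18.3%, list 15.6%), and each of these intervals holds the list's share. HOXD gave 8 of these 11 new domains. With lists of equal length 5 were new at W1, and 5 were lost at W2 and 3 at W12. Among intervals above the median score 2 were lost at W2 and 2 at W6, and an overlap of 50% gave 5 new at W12. The longest domain, 59.6 kb in HOXB at W6 (chr11:96293201-96352800), joined *Hoxb6* to *Hoxb2* and was 11th in width among all domains of that list, while at D0 the widest in the cluster was 26.0 kb.

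The clusters also hold microRNA genes, which silence other transcripts through the bases 2 to 8 of the mature strand, the seed. They are shown, with the seed in capitals and from RefSeq, because copies with one seed lie in clusters that differ in chromatin. The *Mir10a* locus lies upstream of *Hoxb4* in HOXB and *Mir10b* upstream of *Hoxd4* in HOXD, and both mature strands have the seed ACCCUGU.
mmu-miR-10a-5p: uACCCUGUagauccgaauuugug
mmu-miR-10b-5p: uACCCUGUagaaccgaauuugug
The bases of miR-10a-5p (chr11:96317186-96317208, plus strand) were inside an H3K4me1 domain in 5 of 5 skin lists and an H3K27ac peak in 4 of 5, and those of miR-10b-5p (chr2:74726074-74726096, plus strand) in 0 of either. The miR-196 strands share the seed AGGUAGU.
mmu-miR-196b-5p: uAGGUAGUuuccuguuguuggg
mmu-miR-196a-5p: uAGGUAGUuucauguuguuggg
The HOXA copy, miR-196b-5p (chr6:52230129-52230150, minus strand), lay in H3K4me1 in 5 of 5 lists and in H3K27ac in 0. Both copies of miR-196a-5p, in HOXB (chr11:96265187-96265208) and HOXC (chr15:102973365-102973386), lay in neither mark. In HOXC, miR-615 had H3K4me1 in 4 lists and H3K27ac in 0. The marks describe the DNA at these positions, not the level of the microRNAs.

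In culture, all 38 windows held a domain in each of the 4 lists, against 81.8% of all windows without DOX, 82.1% with WT, 82.6% with noHMG and 83.5% with noTA. Without DOX, cover by H3K4me1 was 22.5% over HOXA, 18.3% over HOXB, 13.6% over HOXC and 12.9% over HOXD, against 4.39% of the genome. Culture lists have another layout than those of skin, with narrower intervals, so levels are not set against each other. Culture domains without DOX overlapped a D0 domain of skin in 16 of 17 cases in HOXA and 25 of 27 in HOXB. The counts were 17 of 18 in HOXC and 9 of 15 in HOXD. D0 domains of skin covered 73.0% of HOXA, 56.0% of HOXB, 57.8% of HOXC and 15.1% of HOXD. More overlap is to be had where this cover is high. The share over the whole culture list was not computed, so these counts have no background.

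WT SOX9 in culture went with wider H3K4me1 in HOXA and HOXB. Cover was 29.6% in HOXA, 23.7% in HOXB, 15.5% in HOXC and 13.9% in HOXD with WT, 20.2%, 19.4%, 12.7% and 18.2% with noHMG, and 18.2%, 16.3%, 14.8% and 16.6% with noTA. The genome stood at 4.88%, 4.41% and 4.89%. HOXA and HOXB were thus highest with WT, and HOXD was highest with noHMG, where only 71 of the 27247 tiles gained more than its 5.32 points.

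With WT 8 members were called higher than without DOX against 2.06% of all genes, *Hoxa4*, *Hoxa6*, *Hoxa7*, *Hoxa9*, *Hoxa10*, *Hoxb5*, *Hoxb6* and *Hoxd13*, and 0 lower against 0.761%. The count depended on the lists: it was 1 among the intervals above the median score and 4 with lists of equal length, where *Hoxd13* changed by −0.47 points. *Hoxa7* had 20.2% without DOX, 43.7% with WT, 22.7% with noHMG and 23.2% with noTA. *Hoxa9* had 21.8%, 42.0%, 28.3% and 23.0%, and *Hoxa10* had 20.03%, 33.3%, 26.1% and 20.8%. For these 3 neighbours at the border of the skin acetylation, the WT list stood apart from the other 3. *Hoxb5* was also higher with noHMG than without DOX, by less than 10 points (14.6%, 27.5%, 22.6% and 16.4%).

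The DOX lists of the truncated proteins gave few calls. With noHMG 0 members were called higher (0.315%) and *Hoxa2* lower (0.602%), and with noTA *Hoxc12* was higher (0.971%) and *Hoxa2*, *Hoxc9* and *Hoxc10* were lower (0.884%). *Hoxa2*, the member with most cover without DOX, had 37.3% there, 29.0% with WT, 20.2% with noHMG and 19.5% with noTA, lower in all 3 DOX lists. The largest falls with WT were those of *Hoxb2* (25.8% to 17.3%), *Hoxa2* and *Hoxc9* (25.3% to 18.6%), each under 10 points. *Hoxc13* had 8.77%, 13.7%, 7.28% and 13.4% and *Hoxb13* 12.5%, 16.1%, 13.4% and 6.16%. The 3 comparisons share the list without DOX, so a high or low value in it moves all 3.

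Genes that work with HOX proteins or regulate them were looked at for comparison. Among partner homeodomain genes, whose products bind DNA together with HOX proteins, *Meis1* and *Meis2* had H3K27ac at a start site in every skin list. In this mark *Pbx2* was called higher at W2 and W6 (0.948% and 1.12% of all genes) and lower at W12 (1.68%). Of 10 genes that activate HOX transcription (*Cdx*, *Kmt2a*, *Kmt2b* and their complex, *Kdm6a* and *Kdm6b*), 6 were marked at D0, W1 and W2, 7 at W6 and 4 at W12. Over all genes 44.5%, 43.1%, 44.1%, 48.4% and 36.2% were marked from D0 to W12. *Kdm6b* was called lower in H3K27ac at W1, W2 and W12 (0.465%, 0.383% and 1.68% of all genes). Among 15 Polycomb genes 12, 12, 13, 13 and 9 were marked and 0 windows were called in H3K27ac in any comparison.

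The clusters' neighbours and other homeobox or developmental genes give the local and general background. Of the 6 flanking genes *Evx1*, *Evx2*, *Skap1*, *Skap2*, *Smug1* and *Mtx2*, none had H3K27ac over more than 3.12% of its window, against cluster medians of up to 56.9% in HOXB. The 10 developmental transcription factors of other lineages had a median H3K27ac cover of 0 and a marked start site in 0, 0, 0, 1 and 1 gene from D0 to W12, as low as the members of HOXD. Epidermal transcription factors such as *Trp63* and *Gata3* were all marked at D0, W2 and W12, with a median cover of 23.8% at D0, 19.5% at W2 and 15.9% at W12. Hair follicle stem cell transcription factors had 2.904%, 9.47% and 3.43%. In H3K4me1 1, 9, 5 and 3 of these 10 were called higher from W1 to W12, against 1.7%, 6.03%, 4.72% and 4.33% of all genes. Called lower were 2 at W1 (14.2%) and 2 at W12 (17.4%). *Sox9*, the induced gene, is among the 10. The acetylated HOXA and HOXB genes thus stood above the epidermal factors at D0, with cluster medians of 33.1% and 41.4%, and at W12 the HOXA median of 12.8% was below theirs and the HOXB median of 41.5% above.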

How the data were processed

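MINT-ChIP lists of 38 samples in 16 groups were considered, with groups taken from the labels, and total H3 was not used here. The authors split reads by barcode, trimmed with Skewer, aligned to mm10 with Bowtie2 2.2.9, removed duplicates with Picard, merged replicates with SAMtools 1.9 and called intervals on the merged reads with MACS2 2.1.1 and SICER 0.0.36 or epic2, with versions from the submitters' processing notes. Caller settings and controls are not given in the sources used here, and how the culture lists were called is unclear. The deposited H3K4me1 lists of skin hold a p-value per domain. In the other deposited lists an interval has a score in whole numbers, a fold enrichment (its ratio to local background) and −log10 of p and q, of which that of p was not used. Deposited barcode files (14) hold no measurement. Which list belongs to which condition was read from the list names.

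Cover was computed in Python 3.11.15 with numpy 2.4.6, over 21 chromosomes of GRCm38 and GENCODE M21 genes. An overlap was at least 1 bp, an interval at a start site lay within 1000 bp of it, and a call was a difference of 10 points. Named members were the 3 with the largest rises and falls per mark at W2, W12 and with WT, those with a marked start site, the cluster ends, *Hoxc13* and *Hoxb13*, and for peaks the highest fold per cluster and list. Other members are named where a count or neighbour is described. Members, lists and rule were chosen with earlier results of these data known. Tiles, the 20% limit and the stretches absent at D0 were added after the covers had been seen. Overlap and cover functions were tested on simulated data. Alternatives were intervals above the median score, lists of equal length, joined intervals (gaps under 1000 bp), other flanks and start-site limits, and an overlap of 50%. The list of HOX partner genes is not reported here in full.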

Additional observations from a re-analysis of the deposited data

How the results depend on the processing

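Depth differed between the H3K27ac lists and is unknown for the others, which limits comparisons of cover between lists. No paired analysis was possible because each list pools its replicates and no test was run, and leaving out a replicate was not done for the same reason. The counts of members with an interval did not move by more than 1.5 times under any alternative run, and single clusters, named members and called windows were tested under alternatives chosen after seeing the data. When each list was reduced to its higher-scoring intervals, those above its median score, the change of cover over the 4 clusters was 8.76 points for H3K4me1 at W2, 4.56 at W6, 2.47 with WT and 1.09 with noTA. HOXC changed by 0.78 points at W6 and HOXD by −0.83 at W12 in H3K4me1, both against their direction in the full lists. Lost H3K4me1 domains were 2 at W2 and 2 at W6, lost H3K27ac peaks 1, 1, 3 and 15 from W1 to W12, and lost domains with noTA 6. Gained H3K27ac peaks were 9 at W1, 2 at W2 and 8 at W12. H3K4me1 windows called higher were 2 at W1, 10 at W6 and 3 at W12, and lower 6 at W1, 1 at W2 and 12 at W12. H3K27ac windows called higher were 9 at W6 and 1 at W12, and lower 0 at W6. In culture 1 was called higher with WT, 2 lower with noHMG and 2 higher with noTA.

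With lists of equal length, H3K4me1 cover over the 4 clusters changed by 2.93 points at W1 and 5.75 at W2, and HOXC by 1.21 at W6, a reversed direction. Gained H3K4me1 domains were 5 at W1, lost ones 5 at W2 and 3 at W12, and gained ones with noTA 7. Windows called higher in H3K4me1 were 11 at W1, 12 at W2 and 5 at W6, and lower 1 at W2. With WT 4 were called higher and with noHMG 4 lower, and *Hoxd13* changed by −0.47 points with WT, a reversed direction.

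Joining intervals gave an H3K27ac change of 5.21 points over the 4 clusters at W2, with 7 windows called higher at W2 and 2 at W12, and 4 H3K4me1 windows lower at W2. An overlap of 50% gave 5 gained H3K4me1 domains at W12 and 7 and 8 lost H3K27ac peaks at W2 and W6. With start sites out to 2500 bp, 17 members were marked at W12. The causes of these shifts were not tested. The H3K27ac calls at W1 (12 higher) and W12 (11 lower) stayed within 1.5 times under all 3 settings run on them.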
